A study of Zea mays with 18 samples.

Results

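Genes of the Polycomb group, 3 in number, were followed through the first days of maize seed development: fie1 (GRMZM2G118205), fie2 (GRMZM2G148924) and GRMZM2G043484. They were taken by gene identifier from the 38300 genes in the table, and all 3 passed the filter on low values. GRMZM2G043484 had been picked under the name mez1, but the RefSeq name table pairs it with mez3 and gives mez1 to GRMZM2G157820. It is called mez3 here, and GRMZM2G157820 is described under its own name among the other subunits. RNA was measured in the inbred line B73 in 6 groups of 3 libraries. These were the whole embryo 4 days after pollination (DAP), the central cell before fertilisation (0 DAP), and the endosperm at 1, 2, 3 and 4 DAP. The central cell came from unfertilised ears and the later tissues from self-pollinated ears, all grown in a greenhouse, and sections were cut out by laser capture. All groups share the B73 genotype, and none was treated. Per the labels, the sections of each replicate came from several kernels of 1 ear, so a replicate stands for 1 ear. Both parents of a kernel were B73, and the table has 1 value per gene, so maternal and paternal transcripts cannot be told apart. For the embryo and for 0, 1 and 2 DAP, but not for 3 and 4 DAP endosperm, the amount of RNA was read from the 18S band. This difference coincides with the groups, and its part in the results was not tested.

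Polycomb repressive complex 2 (PRC2) places a repressive methyl mark on histone H3 and keeps target genes silent through cell divisions. Its core holds a methyltransferase of the Enhancer of zeste type, a WD40 protein of the extra sex combs type, a Su(z)12-type zinc finger protein and a histone-binding p55-type WD40 protein. In plants the complex is known for restraining endosperm growth until fertilisation, as described for fie mutants of Arabidopsis. In maize, fie1 and fie2 encode the extra sex combs type subunit, and mez1, mez2 and mez3 the methyltransferase. Maize fie1 is known as an imprinted gene of the endosperm, transcribed from the maternal copy, whereas fie2 is known from many tissues.

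Levels are given in CPM, read counts scaled per library in the deposited normalisation, and the libraries held 7688120 to 124078873 recovered reads. The shallowest were replicate 1 at 1 DAP and replicate 1 of the embryo, with 7688120 and 9572961 reads. Column totals in CPM were not equal. They ran from 1156760 to 1241740 at 2 DAP, 1034390 to 1122250 at 3 DAP and 870772 to 946658 in the 4 DAP endosperm. The scaling thus differs between stages, and its part in the order of fie1 levels was not tested. CPM is not corrected for transcript length, so levels were not compared between genes. The 6 embryo genes matched (lec1, vp1, wox2A, wox9A, wox9B and wox9C) summed to 56.8 to 114 CPM in the embryo libraries and to 0.62 to 8.02 CPM in all central cell and endosperm libraries. Of these, wox2A was not highest in the embryo. It averaged 3.61 CPM there and 4.94 CPM at 1 DAP, where 1 library had 7.84 CPM. The 9 transfer layer genes, which mark the sugar-importing base of the endosperm, summed to 0.17 to 0.71 CPM in the embryo and 226 to 797 CPM in the 4 DAP endosperm. The 5 embryo-surrounding region genes, which mark the endosperm next to the embryo, summed to 473 to 890 CPM in the embryo and 42.5 to 255 CPM in the 4 DAP endosperm. The 4 maternal ovule genes (mainly zag2) summed to 69.1 to 94.6 CPM in the central cell and to 0.85 to 5.11 CPM in the 4 DAP endosperm. In bulk samples of this kind, fewer cells of a type and less RNA per cell cannot be told apart.

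Transcripts of fie1 were close to 0 in the central cell and appeared in the endosperm within a day of pollination. Their mean was highest at 2 DAP in CPM as scaled, but the later steps were not called. In the central cell fie1 had 0.21, 0.52 and 0 CPM, from 15, 42 and 0 reads. The library with 0 reads allows a level of up to 0.0731 CPM (3 reads), and this limit covers counting error only. At 1 DAP it had 9.15, 20.0 and 25.6 CPM, and at 2 DAP it had 121, 114 and 124 CPM. The endosperm held 96.9, 110 and 90.3 CPM at 3 DAP and 73.2, 77.2 and 95.9 CPM at 4 DAP. Every 1 DAP library was above every central cell library, and every 2 DAP library was above every 1 DAP library. In the CPM values as scaled, the 3 DAP libraries were all below those of 2 DAP, while 3 and 4 DAP overlapped.

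The mean of fie1 was 18.2 ± 8.35 CPM at 1 DAP and 0.24 ± 0.26 CPM at 0 DAP (SD, n = 3 each), a 75.2-fold difference. The 0 DAP mean rests on 57 reads, 42 of them in replicate 2, and without that library the fold was 175. The fitted log2 change was 3.86 ± 0.38 (SE; limma, adjusted p = 1.77e-06), on the scale log2(CPM + 1), which understates the change of a gene near 0. Across the alternative settings this value ran from 2.08 to 6.18, always called at an adjusted p below 0.05. The mean reached 120 ± 5.05 CPM at 2 DAP, 6.56-fold above 1 DAP (log2 change 2.76 ± 0.38, limma adjusted p = 9.17e-05). The embryo sac list of 5 genes moved in the same step, summing to 636 to 1320 CPM at 2 DAP, against 118 to 190 CPM at 1 DAP. Most of that sum was EBE-2, with 582, 606 and 1211 CPM at 2 DAP, against 91.7, 141 and 111 CPM at 1 DAP, while es1, es2 and es4 averaged 0.025, 0.024 and 0.023 CPM at 2 DAP. Its part in the fie1 result was not tested. The later steps of fie1 were not called. The log2 change was -0.27 (95% interval -1.07 to 0.52, limma adjusted p = 0.884) for 3 DAP against 2 DAP, and -0.27 (-1.07 to 0.52, limma adjusted p = 0.872) for 4 DAP against 3 DAP. At 4 DAP fie1 averaged 82.1 ± 12.1 CPM, 339-fold above the central cell (log2 change 6.08 ± 0.38, limma adjusted p = 2.38e-09). That fold was 790 without replicate 2 of 0 DAP and 226 without replicate 3. Depending on the setting, other scales included, that log2 change ran from 4.05 to 8.33, and it was called throughout. Without 1 library, on the main scale, it ran from 5.93 to 6.23.

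**Figure D1:**
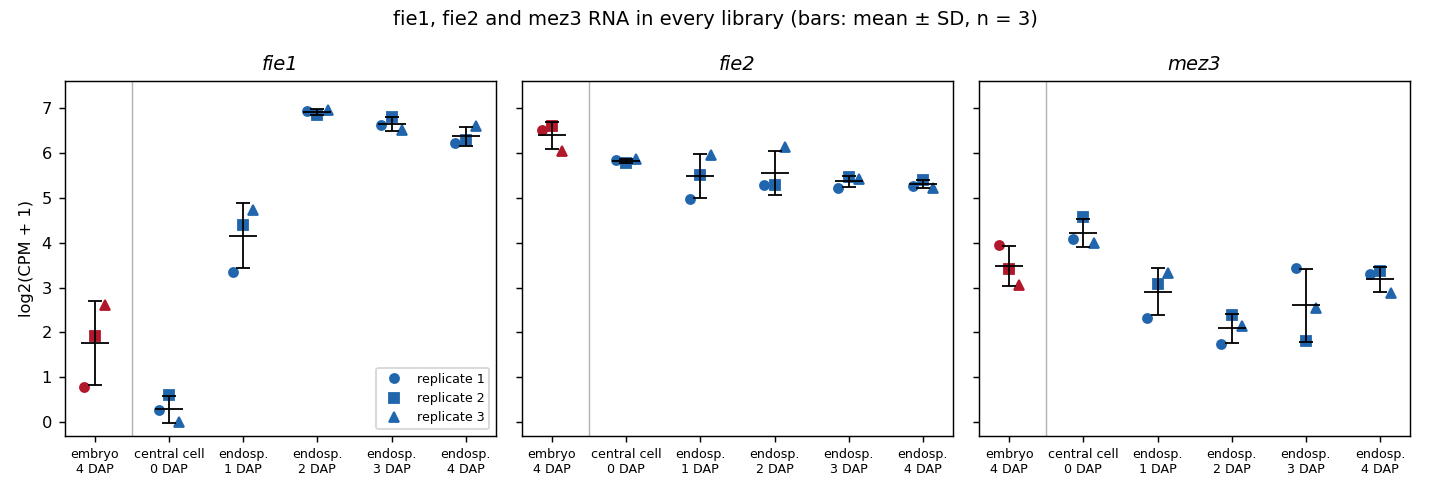
Level of fie1, fie2 and mez3 in each library on the scale log2(CPM + 1), with the embryo (red) left of the central cell and the endosperm stages (blue). Markers are replicates 1 to 3 and bars are the mean ± SD (n = 3). For fie1 the central cell lies near 0 and the endosperm from 2 DAP on lies above 6, while fie2 is highest in the embryo and mez3 in the central cell.

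In the 4 DAP embryo fie1 was low. The embryo libraries had 0.71, 2.77 and 5.16 CPM, from 8, 224 and 260 reads, against 73.2, 77.2 and 95.9 CPM in the endosperm of the same day. No embryo library came near the endosperm range, and the mean of 2.88 ± 2.23 CPM was 28.5-fold lower (SD, n = 3; log2 change -4.60 ± 0.38, limma adjusted p = 7.06e-08), or 47.1-fold lower without replicate 3 of the embryo. In the order of group means the embryo stood between the central cell and the 1 DAP endosperm, with no overlap on either side. The gap to the central cell is narrow, 0.71 CPM from 8 reads against at most 0.52 CPM, and was not tested against counting error. Genes of other tissues varied across the same 3 embryo libraries. EBE-2, a gene of the central cell and early endosperm, had 1.15, 11.8 and 9.54 CPM there, EBE-1 of the same cells had 0.80, 1.86 and 2.74 CPM, and the ovule gene zag2 had 1.33, 15.0 and 3.65 CPM. EBE-1 followed the same order as fie1 over the embryo libraries, and EBE-2 and zag2 did not. In the 4 DAP endosperm EBE-2 had 104, 236 and 254 CPM. The embryo-surrounding region genes summed to 473, 890 and 864 CPM in the embryo libraries, against 42.5, 255 and 179 CPM in the 4 DAP endosperm, so this endosperm list was higher in the embryo. The part of these tissues in the fie1 reads of the embryo was not tested. Reads of fie2, the close relative of fie1, could in principle be counted for fie1, since the treatment of shared reads is not given in the sources used here. The embryo library with the least fie1, replicate 1, had 90.2 CPM of fie2, and the one with the most fie1, replicate 3, had the least fie2, 65.3 CPM. Replicate 3 of the central cell had 2332 reads of fie2 and 0 of fie1. Whether reads were shared was not tested.

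No change of fie2 was called along the endosperm series, and its level was highest in the embryo. Its libraries had 56.5, 53.6 and 56.8 CPM in the central cell, 30.6, 44.8 and 60.8 CPM at 1 DAP and 37.7, 37.7 and 68.9 CPM at 2 DAP. At 3 DAP they had 36.3, 43.0 and 41.7 CPM, and in the 4 DAP endosperm 37.7, 41.1 and 36.3 CPM. Each stage overlapped with the one before it. At 1 and 2 DAP replicate 3 was the highest of its group. All 3 libraries of the 4 DAP endosperm, with a mean of 38.4 ± 2.44 CPM, were below all 3 central cell libraries, with a mean of 55.6 ± 1.78 CPM (SD, n = 3 each). That difference was not called (log2 change -0.53, 95% interval -1.08 to 0.02, limma adjusted p = 0.125). No single step was called either, with adjusted p between 0.394 and 0.980, and the F test over the 5 stages gave an adjusted p of 0.412. The interval of the first step, -0.89 to 0.21, includes a fall of fie2 by nearly 1 log2 unit as well as no change.

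In the embryo fie2 had 90.2, 96.6 and 65.3 CPM, against 37.7, 41.1 and 36.3 CPM in the 4 DAP endosperm. The groups did not overlap, and the embryo mean of 84.0 ± 16.5 CPM was 2.19-fold higher (SD, n = 3; log2 change 1.09 ± 0.26, limma adjusted p = 0.00505). The embryo libraries were also all above those of the central cell, by 1.51-fold on the means, a difference that was not tested. At 4 DAP fie1 was thus lower and fie2 higher in the embryo than in the endosperm.

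Transcripts of mez3, a methyltransferase gene, were highest in the central cell. Their mean was lowest at 2 DAP, but the steps on either side of it were not called. The central cell had 15.8, 22.7 and 15.0 CPM. At 1 DAP the libraries had 4.02, 7.41 and 9.02 CPM, the first of them from only 36 reads, and at 2 DAP they had 2.35, 4.23 and 3.40 CPM. The 3 DAP libraries were spread widely, at 9.86, 2.53 and 4.87 CPM, and the 4 DAP endosperm had 8.79, 9.40 and 6.33 CPM. Every later library of the endosperm lay below every central cell library. Neighbouring stages after 0 DAP overlapped, although all 4 DAP libraries were above all 2 DAP libraries, by 2.46-fold on the means, which was not tested. The maternal ovule genes summed to 69.1 to 94.6 CPM at 0 DAP, 47.8 to 60.5 CPM at 1 DAP and 20.7 to 28.9 CPM at 2 DAP. The embryo sac peptide genes es1 and es2 averaged 6.36 and 4.81 CPM at 1 DAP, against 86.7 and 106 CPM at 0 DAP, and es4 had 7.47 to 10.8 CPM at 1 DAP, against 84.4 to 214 CPM at 0 DAP. The part of these cells in the mez3 values was not tested.

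At 1 DAP mez3 averaged 6.81 ± 2.55 CPM, against 17.8 ± 4.20 CPM at 0 DAP (SD, n = 3 each), and its log2 change of -1.30 ± 0.37 was called (limma adjusted p = 0.0160). The call was lost without replicate 2 of 0 DAP (adjusted p = 0.0726), without replicate 1 of 1 DAP (0.0743) and without both shallowest libraries (0.0599), in the same limma fit. At 2 DAP the mean of 3.33 ± 0.94 CPM was 5.36-fold below the central cell. The step to 2 DAP itself was not called (log2 change -0.82, 95% interval -1.59 to -0.04, limma adjusted p = 0.127). It was called without the replicate 1 libraries (-0.94, adjusted p = 0.0463) and without both shallowest libraries (-1.11, adjusted p = 0.0469). The steps to 3 DAP (log2 change 0.51, 95% interval -0.26 to 1.29) and to 4 DAP (0.58, -0.20 to 1.35) were not called, with limma adjusted p of 0.648 and 0.577. Without the replicate 1 libraries the step to 3 DAP turned to -0.077. The mean of the 4 DAP endosperm, 8.17 ± 1.62 CPM, was 2.18-fold below the central cell (log2 change -1.03 ± 0.37, limma adjusted p = 0.0351). This call was lost when replicate 1 or 2 of 0 DAP or any library of the 4 DAP endosperm was left out, with adjusted p between 0.0522 and 0.131. The F test over the 5 stages was called for mez3 (adjusted p = 0.00140) and for fie1 (adjusted p = 1.50e-09), as for 53.1% of all genes tested.

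In the embryo mez3 had 14.5, 9.73 and 7.30 CPM, against 8.79, 9.40 and 6.33 CPM in the 4 DAP endosperm. The groups overlapped, and the log2 change of 0.30 (95% interval -0.48 to 1.07) was not called (limma adjusted p = 0.627). The interval includes an embryo level higher by 1 log2 unit. All embryo libraries were below those of the central cell.

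**Figure D2:**
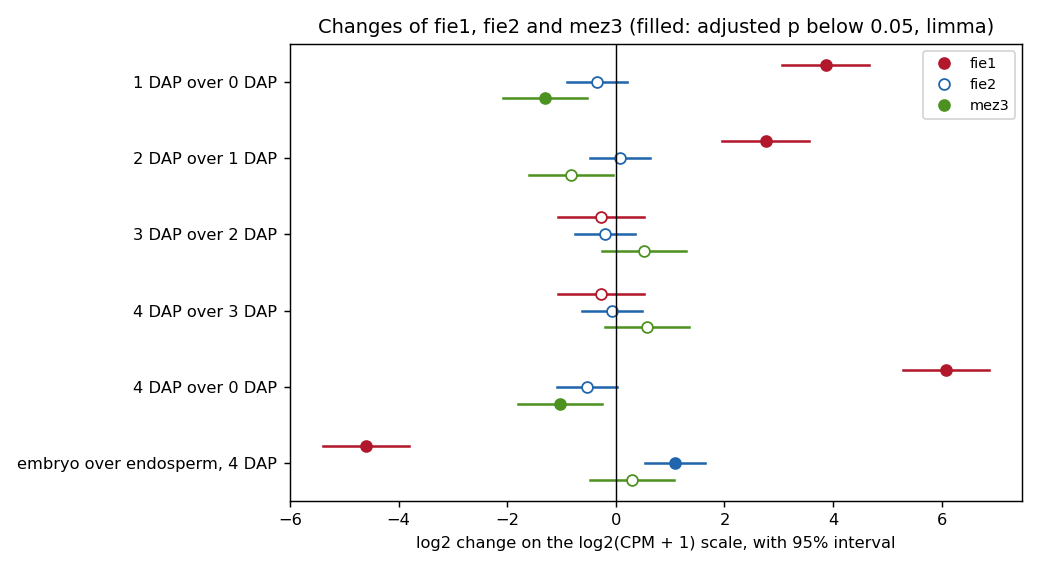
Fitted log2 change of fie1, fie2 and mez3 in the 6 comparisons, on the scale log2(CPM + 1), with 95% intervals from limma. Filled points were called at an adjusted p below 0.05. The farthest from 0 is fie1 at 4 DAP over 0 DAP, followed by fie1 in the embryo and in the first 2 steps; the fie2 change is filled in the embryo comparison only, and mez3 is filled at 1 and 4 DAP against 0 DAP.

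These calls stand beside the share of all genes called in the same fit. Of the 3 genes, 2 were called at 1 DAP against 0 DAP (1 higher, 1 lower), where 22.9% of the 31783 genes tested were called. At 2 DAP against 1 DAP 1 was called, fie1, against 20.6% of all genes, or 32.7% with the replicate number as a block. None was called at 3 DAP against 2 DAP, where limma called 2.63% of all genes (7.63% with the block), or at 4 DAP against 3 DAP, where it called 2.49% (8.62% with the block). In these last 2 comparisons 0 of the 3 had an unadjusted limma p below 0.05 (the lowest were 0.179 and 0.134, both for mez3), and edgeR and DESeq2 called 0 as well. At 4 DAP against 0 DAP 2 were called, fie1 and mez3, against 37.2%, and for the embryo against the endosperm 2 were called, fie1 and fie2, against 23.5%. With the block, limma called more of the 31783 genes here too. It called 10839 at 1 DAP against 0 DAP, 15357 at 4 DAP against 0 DAP and 10974 for the embryo. Without the block these counts were 7276, 11823 and 7475. The 1 DAP and 4 DAP comparisons share the 0 DAP libraries.

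Ratios between the 3 genes show whether they changed unequally. They were taken as log2 ratios of (CPM + 1), so transcript length cancels in a change of ratio only where levels are well above 1 CPM. In the central cell, with 0 to 0.52 CPM of fie1, the added 1 CPM largely sets the ratios to fie1, and the size of their differences depends on it. The log2 ratio of fie1 to fie2 was -5.57, -5.17 and -5.85 in the central cell and ran from -1.64 to 1.65 over the 12 fertilised endosperm libraries. Its mean was 0.59 ± 1.19 in the fertilised endosperm (n = 12) and -5.53 ± 0.35 in the central cell (n = 3), a difference of 6.12 (exact two-sided permutation test, p = 0.0022, adjusted p = 0.0033 over 6 ratio tests). With 5 CPM added in place of 1 the difference was 4.12, and with 0.25 CPM it was 7.57, called in both cases. That p is the smallest these 15 libraries can give. Every central cell and embryo library already had less fie1 than every fertilised endosperm library. The ratio tests with fie1 therefore add no support beyond the fie1 levels. The embryo had -5.74, -4.69 and -3.43, below every fertilised endosperm library, with a difference of -5.21 from their mean (exact permutation test, adjusted p = 0.0033). Within the fertilised endosperm the ratio had a mean of -1.33 at 1 DAP, 1.35 at 2 DAP, 1.28 at 3 DAP and 1.07 at 4 DAP, so the pooled SD holds a stage difference. The permutation test treats libraries of different stages as exchangeable and has no replicate term. Its p therefore does not measure the spread between replicates of a stage.

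The difference in the log2 ratio of mez3 to fie1, with fie1 as the lower term, had the opposite sign. This ratio is the mez3 to fie2 ratio less the fie1 to fie2 ratio, so its tests largely restate the change of fie1. The ratio averaged -3.32 ± 1.47 in the fertilised endosperm and 3.92 ± 0.10 in the central cell, a difference of -7.24 (exact permutation test, adjusted p = 0.0033), or -4.83 with 5 CPM added and -8.82 with 0.25 CPM. The embryo averaged 1.71 ± 1.38, which was 5.03 above the fertilised endosperm (exact permutation test, adjusted p = 0.0033). For the ratio of mez3 to fie2 the difference was smaller, with means of -2.73 ± 0.70 in the fertilised endosperm and -1.61 ± 0.35 in the central cell (difference -1.12, exact permutation test, p = 0.0198, adjusted p = 0.0237). One of the 12 fertilised libraries, replicate 1 at 3 DAP, overlapped with the central cell range. This call was lost without replicate 1 of 0 DAP (exact permutation test, adjusted p = 0.0527), without replicate 2 of 0 DAP (0.0923) and without all replicate 1 libraries (0.0533). Between the embryo, at -2.91 ± 0.32, and the fertilised endosperm the difference of -0.18 was not called (exact permutation test, p = 0.659). The pooled endosperm stages differ among themselves, with means between -3.47 at 2 DAP and -2.12 at 4 DAP, so the p of this ratio does not measure replicate spread either. Set beside the endosperm of the same day, the embryo libraries (-3.18 to -2.56) all lay lower than the 4 DAP endosperm libraries (-2.35 to -1.98), which was not tested.

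**Figure D3:**
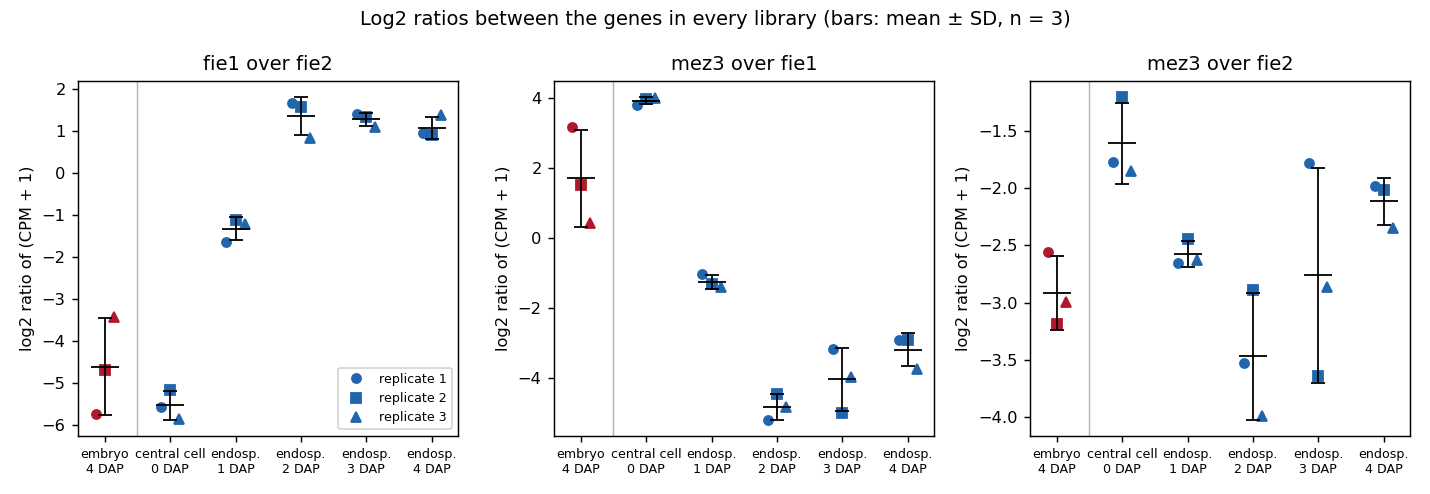
Log2 ratios of (CPM + 1) between fie1, fie2 and mez3 in each library, with the embryo (red) left of the central cell and the endosperm stages (blue). Markers are replicates, bars the mean ± SD (n = 3), and the 3 vertical axes differ. The ratio of fie1 to fie2 is near -5.5 in the central cell and above 0 from 2 DAP on, and the embryo lies near the central cell.

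The other PRC2 subunits matched by name were 7 genes, the methyltransferase genes mez1 and mez2, the Su(z)12-type gene vef101 and the p55-type genes nfc101, nfc102, nfc103 and nfc104. They were taken by name only, and whether their proteins, those of the nfc genes above all, work in PRC2 here was not tested. At 1 DAP against 0 DAP, 1 was called higher and 2 lower, where 10.3% and 12.6% of all genes were called higher and lower (edgeR put 56.4% of its calls on the higher side, limma 45.1%). Their median log2 change was 0.13, and that of all genes was -0.04. The methyltransferase gene mez2 fell, with 22.1, 13.2 and 11.4 CPM at 1 DAP, against 39.8, 59.4 and 45.2 CPM at 0 DAP (log2 change -1.60, limma adjusted p = 0.000664). The zinc finger gene vef101 fell as well, with 52.1, 44.8 and 31.2 CPM at 1 DAP, against 113, 95.1 and 79.2 CPM at 0 DAP (log2 change -1.16, limma adjusted p = 0.00181). Neither group pair overlapped. The call of nfc103 (log2 change 0.49, limma adjusted p = 0.0481) was lost in 18 of 29 alternative settings, 16 of which left out 1 library.

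Between 1 and 2 DAP, when fie1 rose 6.56-fold, 4 of these 7 genes rose and none fell, where 9.95% of all genes were called higher and 10.6% lower. By edgeR and DESeq2, too, 4 were called higher and 0 lower, and 0 fell at an unadjusted limma p below 0.05. The median log2 change of the 7 was 0.76, and that of all genes was 0.00. Of the methyltransferase genes, mez1 rose, with 157, 89.9 and 112 CPM at 2 DAP, against 52.9, 48.6 and 51.2 CPM at 1 DAP (log2 change 1.18, limma adjusted p = 0.00409). The p55-type genes nfc101, nfc102 and nfc103 rose by 1.12, 1.19 and 0.76 on the log2 scale (limma adjusted p of 0.00311, 0.00124 and 0.00487). The genes nfc101 and nfc102 followed each other closely over the 18 libraries (Pearson r = 0.96, a description), and they may share reads. For mez2 and vef101, values at 2 DAP (mean 12.1 and 32.2 CPM) were not called against 1 DAP (15.6 and 42.7 CPM).

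**Figure D4:**
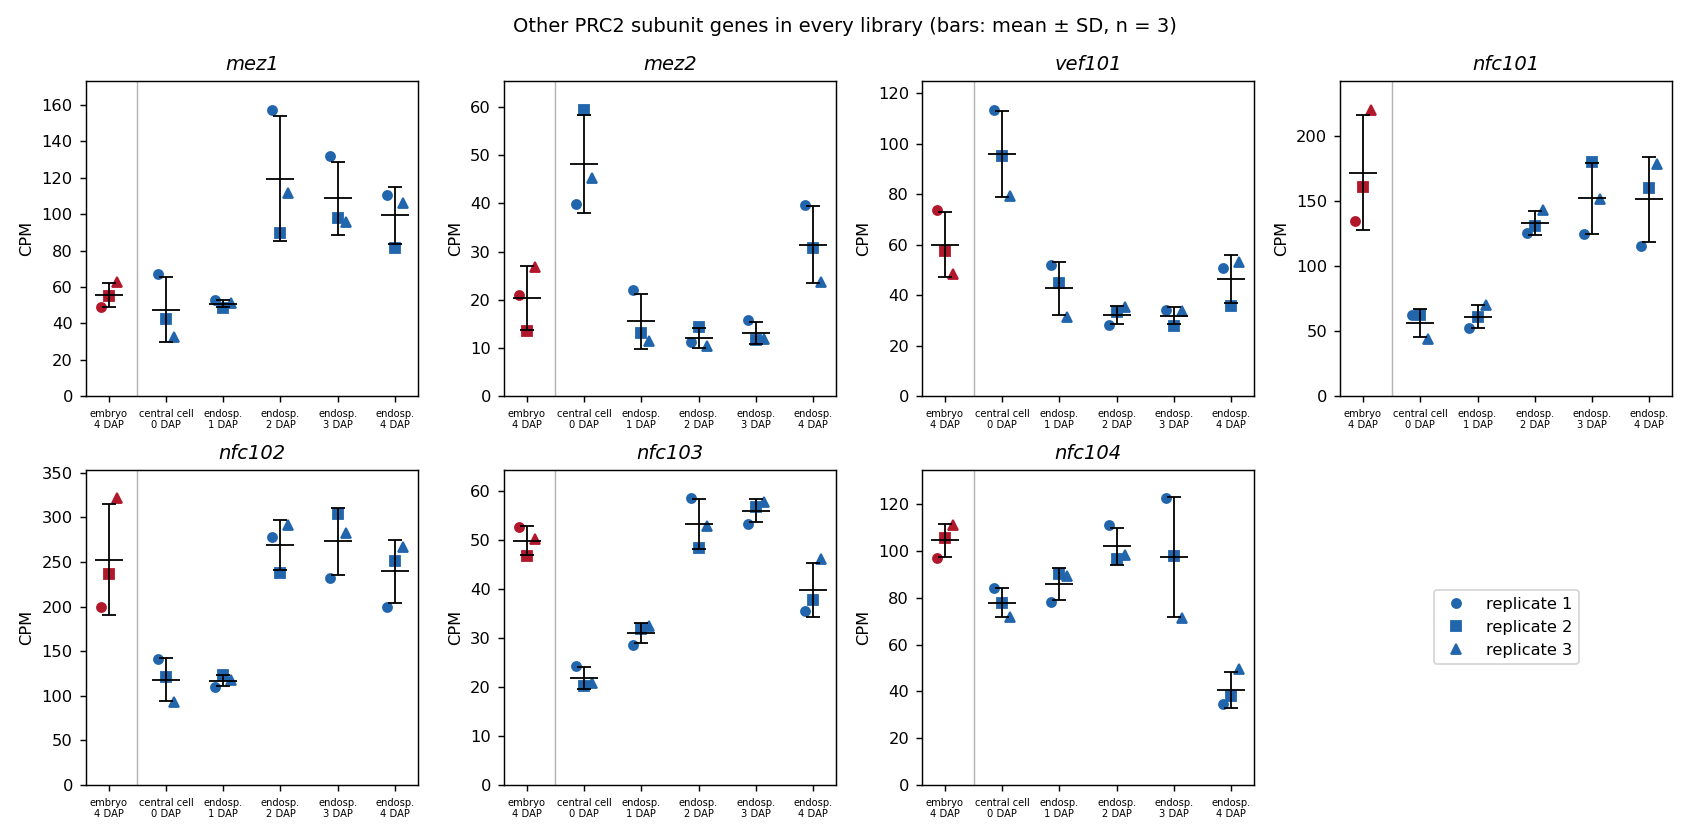
CPM of the 7 other PRC2 subunit genes in each library, with the embryo (red) left of the central cell and the endosperm stages (blue); markers are replicates and bars the mean ± SD (n = 3). Vertical axes start at 0 and differ between genes. The levels of mez1, nfc101 and nfc102 step up between 1 and 2 DAP, those of mez2 and vef101 step down between 0 and 1 DAP, and nfc104 is lowest in the 4 DAP endosperm.

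At 3 DAP against 2 DAP limma, edgeR and DESeq2 each called 0 of the 7, and 0 had an unadjusted limma p below 0.05, with a median log2 change of 0.02 (all genes -0.01). At 4 DAP against 3 DAP, 1 was higher and 1 lower, where 1.67% and 0.818% of all genes were called so (3.62% and 5% with the replicate block, which turns the balance to the lower side), and the medians were -0.13 and -0.01. The p55-type gene nfc104 had 34.5, 37.9 and 49.4 CPM at 4 DAP, against 122, 98.1 and 71.3 CPM at 3 DAP, with no overlap (log2 change -1.22, limma adjusted p = 0.00233). That call was lost when only the groups compared were fitted (adjusted p = 0.0767). The gene mez2 had 39.7, 30.7 and 23.8 CPM at 4 DAP, against 15.7, 11.6 and 11.9 CPM at 3 DAP (log2 change 1.19, limma adjusted p = 0.0344), a call lost in 7 of 29 alternative settings. At 4 DAP against 0 DAP, 4 of the 7 were higher (mez1, nfc101, nfc102 and nfc103) and 2 lower (nfc104 and vef101), where 17.5% and 19.7% of all genes were. The median of the 7 was 0.84, against 0.01 for all genes.

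In the embryo against the 4 DAP endosperm, 1 of the 7 was higher and 1 lower, where 12.4% and 11.1% of all genes were called so, with medians of 0.18 and -0.01. The gene nfc104 had 97.1, 105 and 111 CPM in the embryo, against 34.5, 37.9 and 49.4 CPM in the endosperm (log2 change 1.36, limma adjusted p = 0.000102). The methyltransferase gene mez1, like fie1 known as maternally expressed in maize endosperm, had 49.2, 55.3 and 62.6 CPM in the embryo, against 111, 81.2 and 106 CPM in the endosperm. Its groups did not overlap, but its call (log2 change -0.82, limma adjusted p = 0.0297) was lost in 5 of 29 alternative settings, 4 of which left out 1 library. Over the 18 libraries, which share stages and tissue, the Pearson r of fie1 was 0.83 with mez1, -0.75 with mez3, -0.88 with vef101 and -0.58 with fie2, given as descriptions.

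Among genes with a name in the RefSeq table, those whose log2(CPM + 1) followed fie1 most closely over the 18 libraries were Yucca3, a flavin monooxygenase of auxin synthesis (r = 0.94), Med13, a subunit of the Mediator kinase module (r = 0.93), and the homeobox gene hox1a (r = 0.92). Among all genes tested, named or not, 25 had a higher r with fie1 than Yucca3, 57 a higher r than Med13 and 86 a higher r than hox1a. Yucca3 (GRMZM2G107761) averaged 9.58 CPM in the central cell, 889 at 1 DAP, 7549 at 2 DAP, 1950 at 3 DAP and 2495 at 4 DAP, and 16.8 CPM in the embryo. Like fie1 it had its highest mean CPM, as scaled, at 2 DAP and was low in the central cell and the embryo. Med13 (GRMZM2G053588) and hox1a (GRMZM2G136369) changed over a much smaller range, with 2.54 and 2.84 CPM in the central cell and 6.91 and 10.9 CPM at 2 DAP. Unlike fie1, Med13 did not have its highest mean CPM at 2 DAP, with 7.09 CPM at 3 DAP and 7.31 CPM at 4 DAP. In the embryo Med13 and hox1a averaged 4.26 and 5.01 CPM.

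The named genes closest to fie2 were gtr1 (GRMZM2G177412, r = 0.86), the MYB-related gene MYBR21 (GRMZM2G079458, r = 0.85) and PRO1 (GRMZM2G074361, r = 0.84). All 3 were highest in the embryo, where gtr1 averaged 69.6 ± 17.0 CPM (SD, n = 3), and gtr1 had 9.50 CPM in the central cell and 2.50 CPM in the 4 DAP endosperm. Over the 15 central cell and endosperm libraries alone, their r with fie2 was 0.66, 0.68 and 0.65. For mez3 they were lls1 (GRMZM2G339563, r = 0.86), vacs1 (GRMZM2G067546, r = 0.85) and pho1 (GRMZM2G074158, r = 0.84). All 3 had their lowest mean at 2 DAP, where lls1, vacs1 and pho1 averaged 0.095, 1.16 and 1.41 CPM. In the central cell they averaged 1.71, 11.5 and 30.8 CPM, the first being the highest mean of lls1, a gene low in every group. Unlike mez3, vacs1 was highest in the embryo, with a mean of 12.6 CPM.

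**Figure D5:**
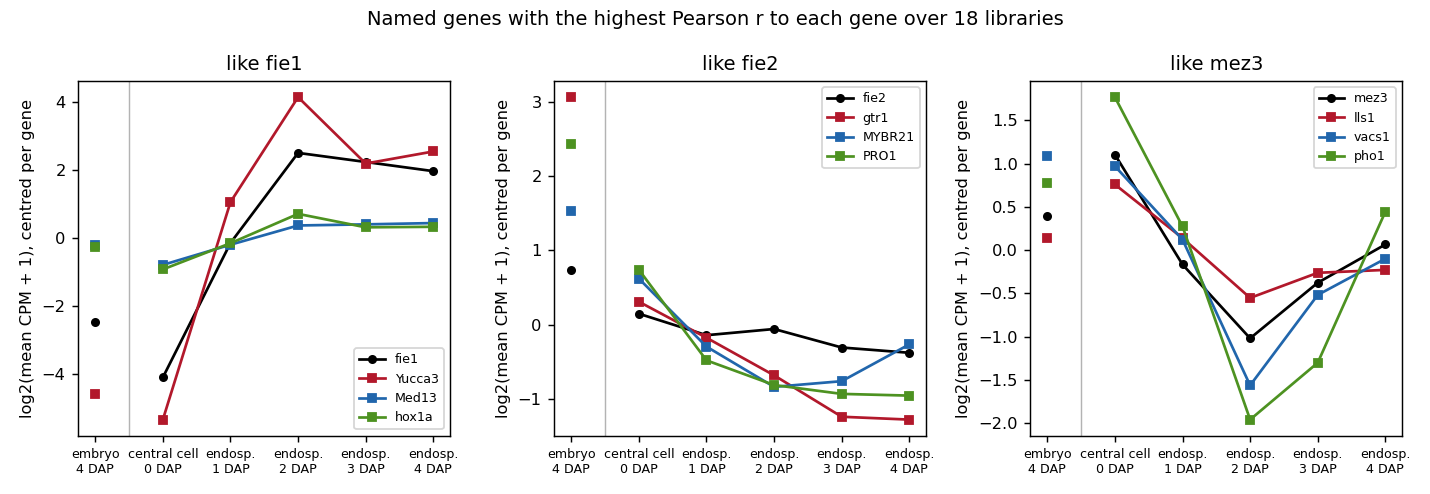
Group means of fie1, fie2 and mez3 (black) and of the 3 named genes with the highest Pearson r to each over 18 libraries, as log2(mean CPM + 1) centred on each gene's mean; the embryo is the separate point left of the stages. Vertical axes differ. Yucca3 and fie1 both have their highest group mean at 2 DAP, in CPM as scaled. The fie2 set is highest in the embryo, and the mez3 set has its lowest group means at 2 DAP.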

How the data were processed

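Per the labels' protocols, captured RNA was amplified as cDNA before paired-end sequencing. The authors deposited normalised signal values in CPM for 38300 genes, with column totals between 850346.3 and 1241737.6, and whole reads could be recovered from the step size of each column, for all values within a tolerance of 0.001 reads. The submitters' processing notes list B73 RefGen_v3, edgeR, bedtools 2.17.0, TopHat2 2.0.9 and Trimmomatic, with no roles. The handling of strand and of reads shared by similar genes is not given in the sources used here. Names came from RefSeq's table of a later assembly (14444 identifiers matched, 2012 with a name), so no coordinates were used.

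The main test was limma 3.58.1 (trended variance) on log2(CPM + 1) over all 18 libraries, for the 31783 genes that reached 1 CPM in 3 or more libraries, adjusted by Benjamini-Hochberg and called below 0.05; it was tested on simulated data. Ratios were compared by exact two-sided permutation tests with the fertilised endosperm stages pooled, GRMZM2G043484 standing for the planned mez1. The recovered reads were also tested with edgeR 4.0.16 and DESeq2 1.42.0, and other alternatives are listed in the closing section. RNA was amplified, so reads are not independent molecules.

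Named genes were the 3 selected genes, the other PRC2 subunits with a table row, and the 3 named genes with the highest Pearson r to each of the 3. VIN3-like, PRC1-type and other Polycomb names matched no row. Mrp1 was left out because its symbol belongs to another gene in the name table; ZMM2 and zmm2 are 2 genes with 1 symbol, and esr1 and esr2 share synonyms. The embryo sac and aleurone lists were matched too: at 0 DAP they summed to 465 to 1170 and 15.6 to 30.5 CPM, at 1 DAP to 118 to 190 and 14.7 to 27.9 CPM, at 2 DAP to 636 to 1320 and 3.45 to 4.82 CPM, at 3 DAP to 472 to 830 and 19.8 to 40.1 CPM, and at 4 DAP to 2.04 to 13.9 and 31.1 to 47.3 CPM in the embryo and to 115 to 275 and 91.4 to 126 CPM in the endosperm. In the central cell and the embryo the aleurone sum was mainly vpp1, which averaged 20.5 and 39.3 CPM there. In the same 2 groups Nkd1 averaged 0.23 and 0.34 CPM, and Nkd2 averaged 0.016 and 0.017 CPM. The genes and lists were chosen with earlier results of these data known. Same-numbered libraries deviated together from their group means in all 18 pairs of the comparisons made (r = 0.15 to 0.70), which meets the rule used for pairing, although the labels do not state a shared ear or batch. The fits and p-values in the report have no replicate term, and the fit with the replicate number as a block is given as an alternative.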

Additional observations from a re-analysis of the deposited data

How the results depend on the processing

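Of 39 results, 25 were unchanged in every alternative setting tried for them, fits without 1 library included. Unchanged means the same direction and side of the threshold, or for a count of genes a value within 1.5 times the main one. The settings tried were 29 for a log2 change or a count, 28 for an F test and 23 for a ratio. Leaving out both shallow libraries (replicate 1 of 1 DAP and of the embryo) was chosen after seeing the data. The cause of each change was not tested, except that fewer libraries or groups enter some fits. For mez3, 1 DAP against 0 DAP gave -1.01 without both shallow libraries (not called) and -1.51 to -1.01 without 1 library. The 2 DAP step of mez3 (each step being against the stage before) became called at -0.94 without the replicate 1 libraries and at -1.11 without both shallow ones, and its 3 DAP step turned to -0.077 without the replicate 1 libraries. For 4 DAP against 0 DAP, mez3 ran from -1.14 to -0.86 without 1 library. The uncalled 2 DAP step of fie2 turned to -0.12 with quantile normalization, -0.031 without the replicate 1 libraries and -0.17 without both shallow ones, and ran from -0.21 to 0.31 without 1 library; its 3 DAP step ran from -0.34 to 0.091 without 1 library, and its 4 DAP step turned to 0.032 with quantile normalization. The mez3 to fie2 ratio gave -1.32 without the replicate 1 libraries (not called) and -1.24 to -0.92 without 1 library. With the replicate block, limma called 10389 genes at 2 DAP, 2424 at 3 DAP and 2739 at 4 DAP in these steps, edgeR with the block called 9999, 2833 and 2484, and neither changed a call of fie1, fie2 or mez3; the ratio tests had no blocked fit. Without the block limma called 6539, 837 and 792. DESeq2 called 2088 and 1574 genes in the 3 and 4 DAP steps. Fitting only the groups compared called 4305 genes at 1 DAP against 0 DAP (7276 with all groups), 366 in the 3 DAP step and 393 in the 4 DAP step. The 4 DAP step had 1226 calls without the replicate 1 libraries and 1213 without both shallow ones. Without 1 library the 3 DAP step had 360 to 983 calls (389 and 404 without replicates 1 and 2 of 2 DAP, 473 and 360 without replicates 1 and 3 of 3 DAP), and the 4 DAP step 323 to 972 (323 without replicate 2 of 3 DAP, 454 and 344 without replicates 1 and 2 of 4 DAP). Of limma's calls in the 3 DAP step 71.7% were higher, against 60.8% by edgeR. Of the 7 other subunits, the 4 DAP step had 1 call with quantile normalization, 1 without the replicate 1 libraries, 0 with only the groups compared and 1 to 2 without 1 library, and the embryo comparison had 1 without both shallow libraries and 1 to 2 without 1 library. Depth limits mez3 at 1 DAP, with 36 reads in replicate 1, and fie1 in the central cell and embryo replicate 1.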
